A study of Mus musculus with 6 samples.

Results

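The genes described here encode 10 amino acid transporters of the plasma membrane (Slc38a1, Slc38a2, Slc38a4, Slc38a5, Slc7a1, Slc7a5, Slc7a11, Slc3a2, Slc1a4 and Slc1a5). They were found on the array through the RefSeq accession of each probe, which gave 14 probes for the 10 genes among 39429 probes and 20659 named genes. All 10 were measured in C2C12, an established line of mouse myoblasts that stop dividing and form multinucleated myotubes in low serum. The si-SYISL cells had received a small interfering RNA against the long non-coding RNA SYISL (3 arrays) and the si-NC cells a control small interfering RNA (3 arrays). Both groups were then kept for 2 days in differentiation medium with 2% horse serum, and 1 µg of total RNA per array was labelled with Cy3. No probe was assigned to SYISL, so the knockdown itself was not checked. The genes were chosen with their values in this contrast known, so their differences are given as a description and without a test.

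Amino acids enter cells through carriers of several solute carrier families. Slc38 proteins take up neutral amino acids such as glutamine and alanine together with sodium, and Slc1a4 and Slc1a5 exchange small neutral amino acids. Slc7 proteins carry large neutral, cationic or acidic ones, some only after pairing with the glycoprotein Slc3a2. The uptake of leucine, glutamine and cystine feeds protein synthesis, mTORC1 signalling and glutathione production, and when amino acids run short the transcription factor ATF4 induces several of these genes through amino acid response elements.

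Of the 10 genes, 7 had an entry in the RefSeq promoter table (build GRCm38.p6), with 10 promoters between them, each from 250 bases before to 50 bases after a start. Stretches of 3 promoters are shown because Slc7a11 and Slc1a4 hold the core TGATGCAA of an amino acid response element, and because Slc38a5 had the largest difference of the 10 genes. The first is Slc7a11 at chr3:50443614-50443863 on the minus strand, the second Slc1a4 at chr11:20332704-20332763 on the minus strand and the third Slc38a5 at chrX:8271131-8271380 on the plus strand. Capitals mark TGATGCAA on either strand in the first pair, and CACGTG, an E-box that reads the same on both strands, in the third.
Slc7a11: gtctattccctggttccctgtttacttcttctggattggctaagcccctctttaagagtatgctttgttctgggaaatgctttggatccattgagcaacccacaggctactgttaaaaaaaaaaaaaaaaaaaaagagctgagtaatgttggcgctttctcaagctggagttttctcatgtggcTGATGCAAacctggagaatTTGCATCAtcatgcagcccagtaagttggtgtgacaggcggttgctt
Slc1a4: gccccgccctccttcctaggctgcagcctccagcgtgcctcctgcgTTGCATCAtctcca
Slc38a5: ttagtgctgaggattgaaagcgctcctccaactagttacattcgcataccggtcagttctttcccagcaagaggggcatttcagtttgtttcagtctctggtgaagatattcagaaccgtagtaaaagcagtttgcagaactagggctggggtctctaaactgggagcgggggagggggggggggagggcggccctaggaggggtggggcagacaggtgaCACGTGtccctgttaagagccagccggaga
In Slc7a11 the core lay 66 to 59 bases before the start and, on the opposite strand, 47 to 40 bases before it. In Slc1a4 it spanned the start itself, from 4 bases before to 4 bases after it, on the opposite strand. TGATGCAA was present on either strand in 294 of 32851 promoters of this length (0.895%), and 2 of them, Slc7a11 included, held it more than once. CACGTG was chosen after the Slc38a5 sequence was read; it lay 30 to 25 bases before that start and was present in 7.15% of all promoters. These matches are letters in a window and were not tested as binding sites.

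Between 87.9% and 90.6% of spots were well above background on the si-SYISL arrays, against 78.2% to 84.6% on the si-NC arrays. In either group, replicate 1 and replicate 3 agreed within the scatter of repeated spots (chi-square per probe 0.214 in si-SYISL and 0.252 in si-NC, against 24.7 or more for every other pair of arrays), so the mean of both stood for 1 sample beside replicate 2, and each group had 2 samples. Signals are given for all 6 arrays, scaled so that each array's 75th percentile was 2500.0 intensity units. Differences are log2 values, si-SYISL minus si-NC, with the median difference of all features (0.16) subtracted, ± SE (n = 2 samples per group). The limma p-values test the difference before that subtraction, and so do not test the distance from the median of all features. Nothing in the labels tells whether the replicates were cultured separately, and errors and p-values cover only the scatter of these samples. In RNA from whole cultures, fewer cells of a type and less RNA per cell cannot be told apart. All 8 muscle markers were above background on every array, with a summed signal of 103490.0 to 109740.0 units in si-SYISL and 64209 to 72761 in si-NC. The sum weights the brightest markers most: 4 of the 8 lay above the median difference of all features and 4 below it, from -0.78 to 1.24. The summed signal was 2821 to 2929 in si-SYISL and 2446 to 2661 in si-NC for 5 endothelial markers. It was 4179.9 to 4409 and 4243 to 4393 for 4 leukocyte markers, and 386 to 458 and 358 to 377 for 5 adipocyte markers. Above background on each array were 5 endothelial markers in si-SYISL and 4 to 5 in si-NC. For adipocyte markers this was 4 in si-SYISL and 3 to 4 in si-NC, so these sums include undetected probes. The part of these cell types in the results was not tested.

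Slc38a5 was the member that set the groups furthest apart. It encodes SNAT5, a system N carrier that couples the uptake of glutamine, asparagine, histidine and serine to sodium entry and proton exit. Its signal was 37.3, 33.8 and 29.9 units in si-SYISL replicates 1 to 3, against 532, 366 and 542 units in si-NC replicates 1 to 3. The groups did not overlap, and every si-SYISL array lay far below every si-NC array. The log2 difference was -3.88 ± 0.22, a 14.8-fold lower signal relative to the median of all features and 13.2-fold lower before that subtraction. With replicates left out the difference ran from -4.14 to -3.62. The probe was well above background on all 6 arrays, yet in si-SYISL its signal was only 1.76 to 3.12 times that of the dimmest spot so classed, against up to 22.6 times in si-NC. With normexp on the median pixel intensities and an offset of 50, where the input signal and the background step both differ, it was -2.37.

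**Figure D1:**
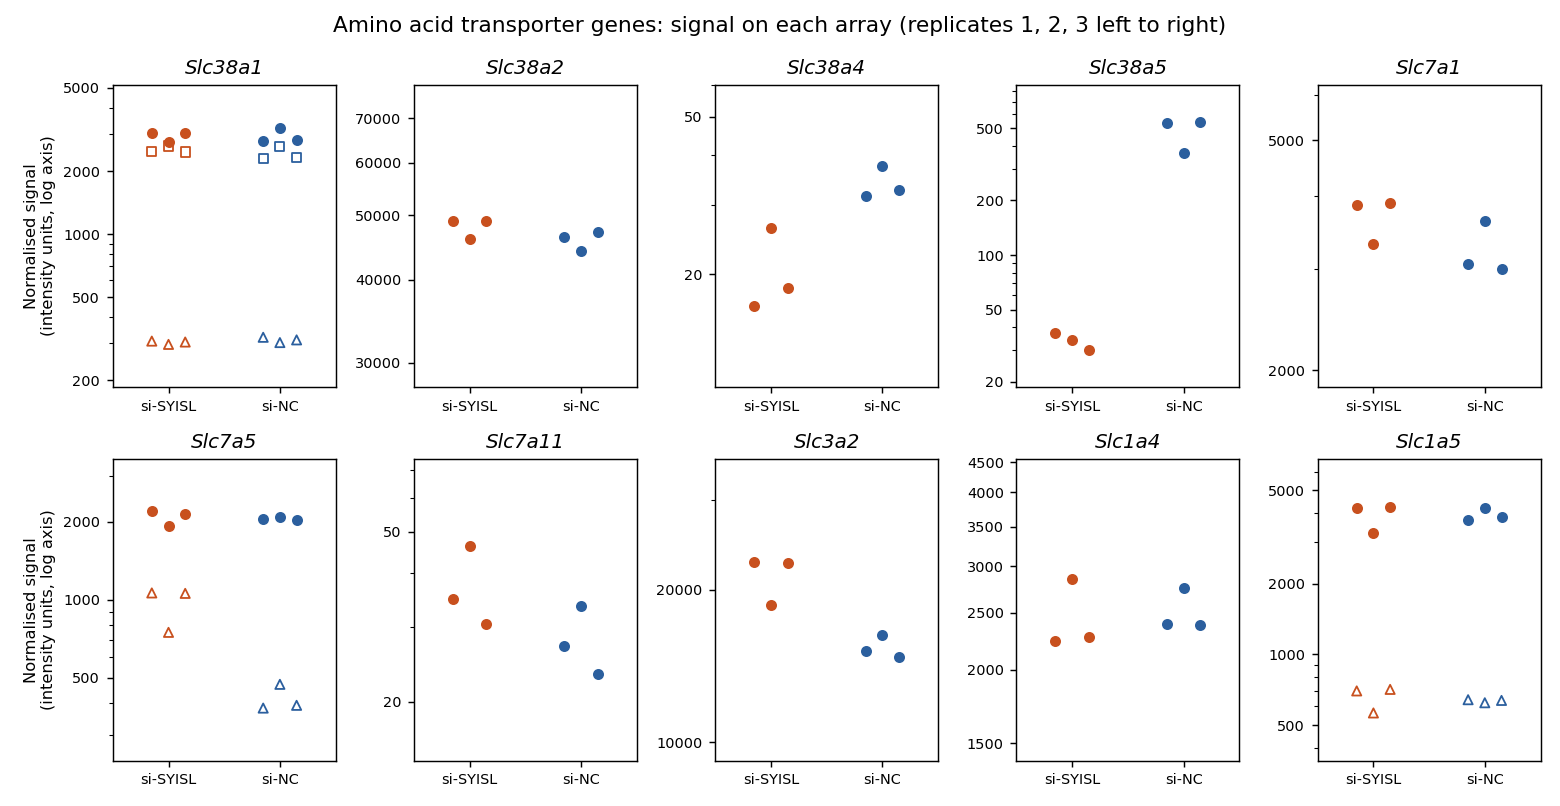
Normalised signal (intensity units, log axis, a separate scale for each gene) of the 10 transporter genes on the 3 si-SYISL arrays (orange, left) and the 3 si-NC arrays (blue, right), with replicates 1 to 3 in order from left to right. Filled circles are the probe that represents the gene and open symbols its other probes. Slc38a5 lies between 29.9 and 37.3 units in si-SYISL and between 366 and 542 units in si-NC, while most other genes overlap.

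The genes on either side of Slc38a5 on the X chromosome did not show a difference of that size. Upstream of it, Ftsj1, Porcn and Ebp differed by -0.07 ± 0.11, 0.30 ± 0.13 and 0.26 ± 0.15. On the other side, Ssxb10, Ssxb9 and Ssxb1 differed by -0.42 ± 0.13, -0.39 ± 0.11 and -0.52 ± 0.14. None of these 6 passed in limma (adjusted p = 0.170 to 0.598). No feature did, Slc38a5 included, so the threshold does not set them apart from it. By distance of the centred log2 values over the 4 samples, the named genes that came out nearest to Slc38a5 were Nap1l5 (distance 0.35), Chst8 and Fshr. Nap1l5 had 22.7, 26.5 and 16.98 units in si-SYISL, against 333, 212 and 338 units in si-NC. Chst8 and Fshr were not well above background on any si-SYISL array, so their distances and their order against Slc38a5 are not known. They were at least 6.18-fold and at least 4.91-fold lower in si-SYISL.

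Slc38a4, the SNAT4 gene, encodes a system A carrier best known from liver and placenta and is imprinted in the mouse. Its signal was 16.6, 26.2 and 18.5 units in si-SYISL, against 31.6, 37.6 and 32.6 units in si-NC. The groups did not overlap, and the difference was -0.86 ± 0.23. All of these signals were dim: they were 1.36 to 1.55 times the dimmest spot well above background in si-SYISL and 1.19 to 2.32 times in si-NC. With normexp the difference was -0.35.

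The signals of the other system A genes overlapped between the groups. Slc38a2 encodes SNAT2, which is induced when amino acids are scarce. It had 49076, 46027 and 49122 units in si-SYISL, against 46429, 44141 and 47261 units in si-NC. The groups overlapped, and the difference was -0.10 ± 0.11. Without si-SYISL replicate 2 it was -0.0044, and -0.18 without si-SYISL replicates 1 and 3. Slc38a1, the gene of the glutamine carrier SNAT1, had 3030.4, 2766 and 3024 units in si-SYISL, against 2769, 3223 and 2801 units in si-NC. That difference was -0.21 ± 0.14, and its other probes gave -0.19 ± 0.11 and -0.10 ± 0.13 with every probe fitted on its own. Its reported difference was -0.10 without si-SYISL replicate 2 and -0.09 without si-NC replicate 2. Slc38a1, Slc38a2 and Slc38a4 follow one another on chromosome 15, where the nearest measured genes were Scaf11 on the Slc38a1 side and, beyond Slc38a4, Amigo2 and then Pced1b. Scaf11 differed by 0.08 ± 0.12, the adhesion gene Amigo2 by 0.50 ± 0.11 and Pced1b by 0.07 ± 0.14 (limma adjusted p = 0.284, 0.117 and 0.347).

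Slc3a2, the heavy chain CD98 that brings several Slc7 light chains to the cell surface, was higher in si-SYISL. It had 22643, 18634 and 22597 units in si-SYISL, against 15164, 16285 and 14707 units in si-NC. The groups did not overlap, but the difference relative to all features was small, 0.23 ± 0.15. It rested on the si-SYISL sample of replicates 1 and 3, without which it was 0.06, and it was 0.42 without si-SYISL replicate 2. By the representative probes, 2 of the 10 genes (Slc38a5 and Slc38a4) had both si-SYISL samples below both si-NC samples, a pattern shown by 15.8% of all features. For 1 gene (Slc3a2) both were above, as for 46.3% of all features.

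Among the light chains that pair with Slc3a2, Slc7a5 encodes LAT1, which exchanges leucine and other large neutral amino acids, and its 2 probes disagreed. The brighter probe had 2195, 1922 and 2145 units in si-SYISL, against 2049, 2095 and 2038 units in si-NC, which overlap (difference -0.18 ± 0.12). That difference was -0.05 without si-SYISL replicate 2 and -0.30 without si-SYISL replicates 1 and 3. The dimmer probe had 1062, 748 and 1058 units in si-SYISL, against 381, 471 and 390.5 units in si-NC, with no overlap. At that probe the difference was 0.91 ± 0.22 with every probe fitted on its own, and with the mean of both probes it was 0.36. Both probes carry the same RefSeq accession, so the files do not tell which of them reports the transcript better.

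Slc7a11 encodes xCT, which brings in cystine for glutathione in exchange for glutamate. It was at the edge of detection: 34.9, 46.4 and 30.3 units in si-SYISL, against 27.0, 33.6 and 23.2 units in si-NC. The probe was well above background on 3 of 3 si-SYISL arrays and on 2 of 3 si-NC arrays, so it passed the filter on dim probes only through si-SYISL, whereas the other 9 genes passed in both groups. The groups overlapped and the difference was 0.26 ± 0.25. It was 0.01 with normexp and 0.06 with quantile normalisation. It was 0.05 without si-SYISL replicate 2 and 0.49 without si-NC replicate 2.

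The cationic carrier and the exchangers of small neutral amino acids overlapped between the groups. Slc7a1 encodes CAT1, which carries arginine and lysine, and had 3869, 3311 and 3897 units in si-SYISL, against 3053, 3633 and 2993 units in si-NC (difference -0.05 ± 0.16). Its sign depended on the processing, at 0.11 without replicate 2 of either group and -0.19 when si-NC replicates 1 and 3 were both left out. Slc1a4, the ASCT1 gene for alanine, serine and cysteine, had 2243, 2853 and 2275 units in si-SYISL, against 2394, 2753 and 2380.1 units in si-NC (-0.18 ± 0.17). Its difference was -0.04 without si-SYISL replicates 1 and 3 and -0.05 without si-NC replicate 2. Slc1a5, the ASCT2 gene for glutamine, had 4212, 3292 and 4266 units in si-SYISL, against 3739.6, 4221 and 3847 units in si-NC (-0.26 ± 0.17). Its other probe differed by -0.16 ± 0.15. For Slc1a5 the lower value rested on si-SYISL replicate 2, with -0.03 without it and -0.48 without si-SYISL replicates 1 and 3.

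**Figure D2:**
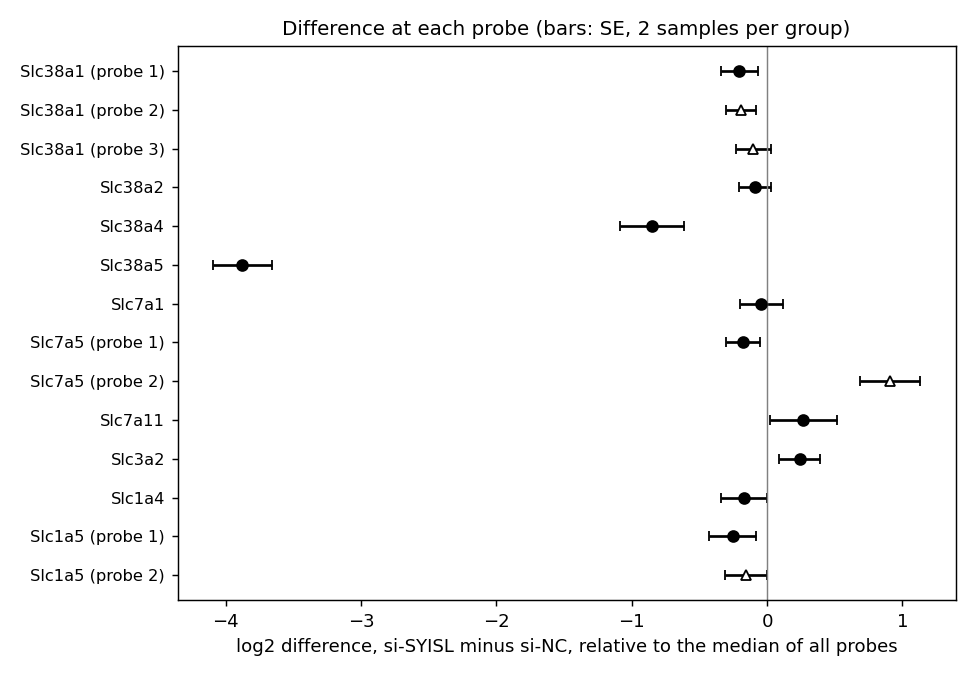
Log2 difference (si-SYISL minus si-NC, relative to the median of all probes) at each of the 14 probes, with every probe fitted on its own; bars are the SE with 2 samples in each group. Filled circles are the probe that represents the gene and open triangles its other probes, and probe 2 of Slc7a5 lies at 0.91 while probe 1 lies at -0.17.

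Over the 14 probes, the median absolute log2 difference between replicates 1 and 3 was 0.016 in si-SYISL and 0.028 in si-NC. Between the 2 samples it was 0.255 in si-SYISL and 0.195 in si-NC. Slc38a5 in si-SYISL went the other way, with 0.319 between replicates 1 and 3 and 0.018 between the 2 samples. Of the 10 genes, 8 lay below the median difference of all features and 2, Slc3a2 and Slc7a11, above it, where 50% of all features lie on each side, and the median of the 10 was -0.18. By 1 or more on the log2 scale, 1 gene (Slc38a5) was lower, as were 1.8% of all features, and 0 were higher, against 2.23% of all features. In limma no feature passed an adjusted p of 0.05 (0 of 28555, 0%), the transporters included, while 6460 features (22.6%) had an unadjusted p under 0.05, 16.8% of all features higher in si-SYISL and 5.85% lower. Since the genes were picked from this contrast, nothing is read from their share.

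Other transporters of amino acids held larger positive differences than any of the 10 genes. Of 42 such genes listed, 37 were measured, with a median of 0.05, and 0 passed in limma. At an unadjusted limma p under 0.05, 8 were higher and 1 was lower (21.6% and 2.70%, against 16.8% and 5.85% of all features). Slc7a8 encodes LAT2, another light chain of Slc3a2. It had 216, 334 and 218 units in si-SYISL, against 54.4, 47.4 and 60.4 units in si-NC. The difference was 2.21 ± 0.25 (limma adjusted p = 0.0882), and the groups did not overlap. Its adjusted p ran from 0.0168 to 0.288 over the alternatives, leaving aside those that took 6 arrays as 6 samples or each probe on its own. The light chain genes Slc7a6 and Slc7a7, named after their values were seen, differed by -0.01 ± 0.11 and -0.02 ± 0.12.

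Slc36a2, which encodes a proton-coupled carrier of glycine, alanine and proline, had 129.7, 142 and 120.8 units in si-SYISL, against 41.2, 49.1 and 41.2 units in si-NC. Its difference was 1.41 ± 0.15 (limma adjusted p = 0.0847, 0.0225 to 0.288 over the same alternatives). Slc6a15, which encodes a sodium-dependent carrier of branched-chain amino acids and proline, had 27.2, 30.0 and 27.5 units in si-SYISL, against 78.4, 64.7 and 78.9 units in si-NC. Its difference was -1.48 ± 0.15 (limma adjusted p = 0.0922, 0.0340 to 0.288 over the same alternatives). Slc7a8, Slc36a2 and Slc6a15 did not pass the threshold as reported. All of them passed when either si-NC sample was left out (replicate 2, or replicates 1 and 3) and with a variance trend and robust estimation, and Slc7a8 and Slc6a15 also passed with the median shift. With normexp their differences were smaller, at 1.35 for Slc7a8, 0.78 for Slc36a2 and -0.62 for Slc6a15. Signals were dim in si-NC for Slc7a8 and Slc36a2 and in si-SYISL for Slc6a15.

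**Figure D3:**
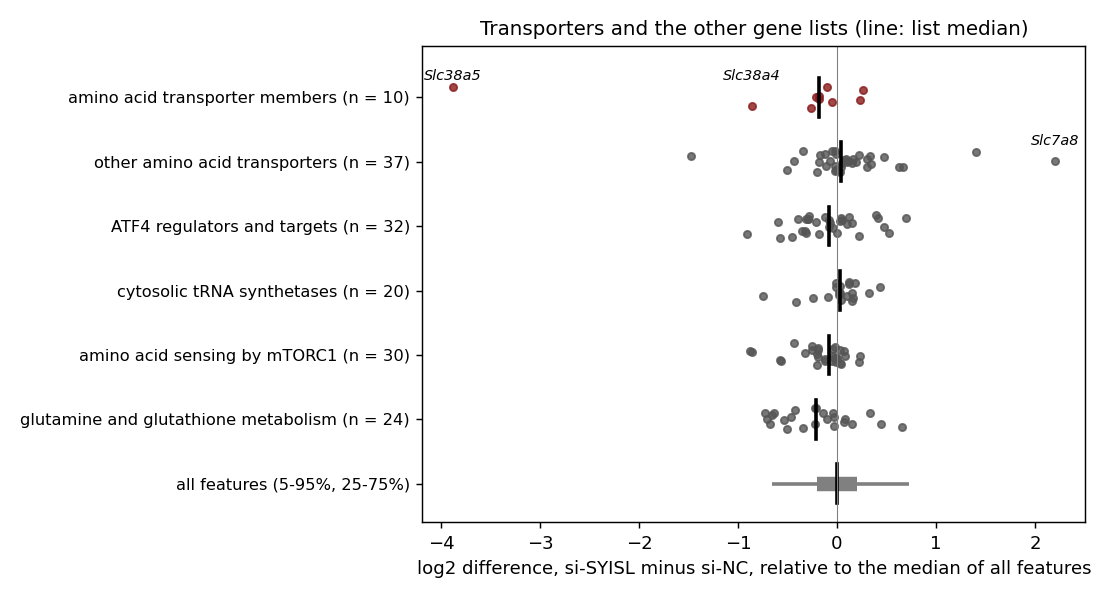
Log2 difference (si-SYISL minus si-NC, relative to the median of all features) of the 10 transporter genes (red) and of the measured genes of 5 other lists (grey); points are genes, spread vertically for legibility, and the black line is the list median. The bottom bar spans the 5th to 95th percentile of all features (thin, -0.66 to 0.73) and the 25th to 75th (thick, -0.20 to 0.20); Slc38a5 lies at -3.88.

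The regulators and targets of ATF4, which include enzymes of amino acid synthesis, had values on both sides of 0. Of 33 listed, 32 were measured, with a median of -0.08, and 0 passed in limma. At an unadjusted limma p under 0.05, 5 were higher and 3 lower (15.6% and 9.4%, against 16.8% and 5.85% of all features). Without si-SYISL replicate 2 the median was 0.03, and 0 were lower without si-NC replicate 2. Nupr1, a stress-induced cofactor, differed by 0.41 ± 0.14, the stress factor Atf5 by 0.48 ± 0.16 and Chac1, which degrades glutathione, by 0.70 ± 0.23 (limma adjusted p = 0.150 to 0.161). With si-SYISL replicate 2 alone standing for its group, they were smaller but still positive, at 0.25, 0.27 and 0.37. On that array each of these genes was brighter than on any si-NC array. Chac1 had 19166, 12628 and 19218 units in si-SYISL, against 8454, 8730.2 and 8358 units in si-NC. Atf4 itself, named after its value was seen, had 77949, 79387 and 78564 units in si-SYISL, against 66386, 79722 and 72115 units in si-NC, a difference of -0.08 ± 0.13. Asparagine synthetase (Asns), also named afterwards, differed by 0.04 ± 0.16. Trib3 and Ddit3, targets of ATF4 likewise named afterwards, differed by 0.23 ± 0.29 and 0.52 ± 0.25 (limma adjusted p = 0.427 and 0.215). The groups overlapped for Trib3 and not for Ddit3.

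The cytosolic tRNA synthetases, which load amino acids on tRNA, had a median of 0.03 over 20 genes, with 0 past the threshold in limma. At an unadjusted limma p under 0.05, 2 were higher and 0 lower (10.0% and 0%, against 16.8% and 5.85% of all features). Cars for cysteine differed by 0.43 ± 0.14, Qars for glutamine by 0.33 ± 0.14 and Gars for glycine by 0.15 ± 0.12 (limma adjusted p = 0.145 to 0.234). Without si-SYISL replicates 1 and 3 these were 0.27, 0.17 and 0.04, and the median of the list was -0.09; without si-SYISL replicate 2 the median was 0.21. The genes that report amino acids to mTORC1 had a median of -0.09 over 30 of 32 listed, with 0 past the threshold. Of these, 2 were higher and 3 lower at an unadjusted limma p under 0.05 (6.67% and 10.0%, against the same shares of all features). The higher count was 0 when either si-NC sample or either si-SYISL sample was left out. Rraga, a Rag GTPase that recruits mTORC1 to lysosomes, had 5915, 7333 and 5863 units in si-SYISL, against 9879, 11482 and 9908 units in si-NC (-0.86 ± 0.17, limma adjusted p = 0.148). The folliculin partner Fnip1 differed by 0.22 ± 0.11 (limma adjusted p = 0.168).

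The genes of glutamine and glutathione metabolism, where the cystine and glutamine brought in by these carriers are used, had a median of -0.21 over 24 of 25 genes. In limma 0 passed, while 3 were higher and 7 lower at an unadjusted p under 0.05 (12.5% and 29.2%, against 16.8% and 5.85% of all features). The count of lower genes changed with the processing. It was 4 with the replicate block or no filter and 5 with normexp or the mean of probes. With quantile normalisation or the series matrix it was 8, and 9 with the median shift or with a variance trend and robust estimation. When 1 sample was left in a group, the median ran from -0.23 to -0.16. The median was -0.10 with quantile normalisation or the series matrix. Odc1, the first enzyme of polyamine synthesis, differed by 0.45 ± 0.11 and Bcat1, a branched-chain aminotransferase, by 0.66 ± 0.15 (limma adjusted p = 0.122 and 0.124). With the mean of its probes, Bcat1 differed by 0.32. The haem oxygenase gene Hmox1 had 5291, 5042 and 5284 units in si-SYISL, against 6925, 7338 and 7091 units in si-NC (-0.64 ± 0.11, limma adjusted p = 0.145). Further targets of the oxidative stress factor NRF2 were picked after their values were seen: Gclm differed by -0.65 ± 0.12, Nqo1 by -0.68 ± 0.13 and Txnrd1 by -0.72 ± 0.16 (limma adjusted p = 0.151 to 0.164), whereas Gclc differed by -0.43 ± 0.12, Srxn1 by -0.10 ± 0.11 and Nfe2l2, the NRF2 gene itself, by -0.34 ± 0.11 (limma adjusted p = 0.265, 0.739 and 0.374).

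As markers of the cell line, Myod1 had 2799, 3242 and 2827 units in si-SYISL, against 4585, 4669.9 and 4570.1 units in si-NC (-0.78 ± 0.13). Myog had 8257, 10732 and 8208 units in si-SYISL, against 8832, 8175 and 8832 units in si-NC (-0.02 ± 0.17). The creatine kinase gene Ckm had 317, 257 and 319 units in si-SYISL, against 165, 159.5 and 167 units in si-NC (0.65 ± 0.15). Their limma adjusted p-values were 0.131, 0.602 and 0.124.

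**Figure D4:**
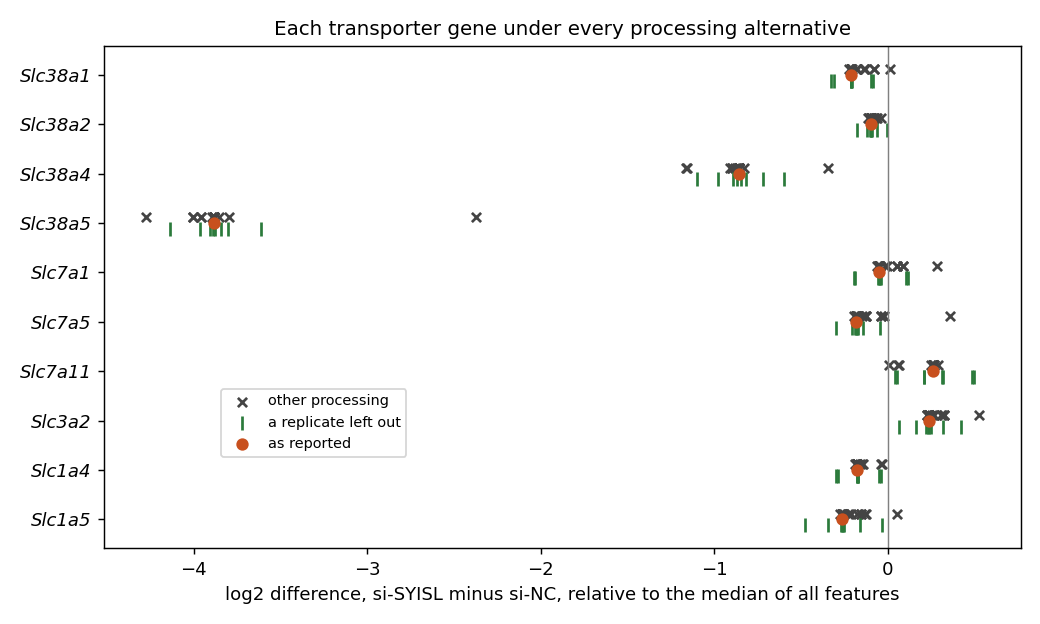
Log2 difference (si-SYISL minus si-NC, relative to the median of all features) of each transporter gene as reported (orange circles), with other processing (crosses) and with a replicate left out (green bars). Slc38a5 runs from -4.28 to -2.37, its highest value being that with normexp background, and Slc7a1 lies on both sides of 0.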

How the data were processed

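Per the file headers, the deposited scanner files hold intensity values (gProcessedSignal), from which Feature Extraction 11.0.1.1 had taken the background and spatial trend of each array, with no normalisation across arrays; the submitters' processing notes give version 10.5.1.1. The same deposited files hold median pixel intensity of spot and local background, and 0 or 1 flags (unit other, per the file headers). The deposited series matrix holds log2 values; its columns have nearly equal quantiles (median 8.58), so it was taken as quantile-normalised, which the labels do not state, and used only as an alternative.

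Signals were put on the log2 scale and centred on the 75th percentile of the array's non-control spots, without outlier spots, and repeated spots were averaged per probe. Names came from RefSeq accessions (27234 of 39429 matched 1 symbol, assembly GRCm38.p6). Probes stayed in if 1 group or both had them well above background on all 3 arrays (for probes with several spots, on at least as many spots as not), and the brightest kept probe represented a gene. This left 28555 features, with all 10 transporter genes and all 14 of their probes. Folds given as "at least" set the dim group to no less than the dimmest spot well above background on each array.

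The contrast was fitted in limma 3.58.1 (lmFit and eBayes, two-sided, 2 samples per group, Benjamini-Hochberg over all features, threshold 0.05) in R 4.3.3, where files were read by data.table (version 1.17.8); tables and figures used Python 3.11.15, pandas 2.3.3, numpy 2.4.6 and matplotlib 3.10.9. In simulated data with independent noise, the fit recovered the mean size of known changes. Its power at the adjusted threshold was not checked. By the headers, both groups' replicates 1 and 2 belong to the first scan and their replicate 3 to the second. The transporter genes, the 5 other lists, the 4 marker lists and the averaging of replicates 1 and 3 were chosen with earlier results of these data known. Named genes are the 10 transporters, the 3 genes with the smallest p of each of the 5 lists, Myod1, Myog, Ckm and the 3 genes nearest to Slc38a5; any other is marked in the text, and 1 gene that this rule names is not reported here. The chromosomal neighbours were chosen after the Slc38a5 value was seen. Alternatives were normexp background (on median pixel intensities), quantile and median-shift normalisation, the series matrix, other filters and probe rules, a variance trend, array weights, blocks on replicate number and scan, each replicate left out and 6 arrays as 6 samples. Values within each scan, and 6 arrays with a replicate block, were added after seeing the data.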

Additional observations from a re-analysis of the deposited data

How the results depend on the processing

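The count of features called by limma, 0 as reported, was 0 with quantile normalisation, the series matrix, no filter, every probe, the mean of probes, array weights or the replicate block, and within the first scan. It was 46 with the filter on all 6 arrays, 71 with the median shift, 83 with the scan as a block and the shared sample as a random block, 183 with normexp, and 903 with a variance trend and robust estimation together. With 6 arrays as 6 samples it was 9762, and 8277 with 6 arrays and a replicate block; both count averaged arrays as separate samples. Leaving out replicates gave 0 to 1371, with 269 without si-NC replicate 2 and 1371 without si-NC replicates 1 and 3, where a lone sample is assumed to vary like the other group. The cause of these shifts was not tested. Of the 143 measured genes of the 5 other lists, 0 were called as reported, 2 with the median shift, 8 with a variance trend and robust estimation, 51 with 6 arrays as 6 samples, 41 with 6 arrays and a replicate block, and 0 to 3 with replicates left out. The median difference of the 10 transporters was -0.18 as reported, and -0.0036 within the second scan, which holds 1 array per group; with replicates left out it ran from -0.25 to -0.04. The 2 pairs of same-numbered samples did not deviate together (r = -0.03 across features). That rests on 1 difference per group, so it does not settle whether the numbers mark a pairing. With 2 samples per group, the count of calls was 0 with and without the replicate block. Relative to the median of all features, Slc38a5, Slc38a4, Slc38a2 and Slc1a4 were lower and Slc3a2 and Slc7a11 higher under every alternative that gave a value, while Slc7a1 changed sign under 7 of 23, and Slc38a1, Slc1a5 and Slc7a5 under 1 each. Slc7a11 had no value with the filter on all 6 arrays. The number of arrays limits the precision. So does signal near background for Slc38a4, Slc38a5, Slc7a11 and Slc6a15 and, in si-NC, for Slc7a8 and Slc36a2.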
